A study of Mus musculus with 22 samples.

Results

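Whether the loss of VHL acts on CD8+ T cells in the same way in spleen and in tumor was examined at day 7, gene by gene, as a genotype by tissue interaction. The interaction is the VHL-deficient minus wild-type (WT) difference in tumor, minus the same difference in spleen, on the log2 scale. It rests on 8 of the 22 libraries of the series: 2 VHL-deficient and 2 WT libraries of unsplit tumor cells, and 2 VHL-deficient and 2 WT libraries of spleen cells, chosen by their labels and not by any measured value. All groups held P14 CD8+ T cells, which carry a transgenic receptor for a peptide of the virus LCMV, from C57BL/6 mice aged 6 to 12 weeks, with 5 mice in each biological replicate. Not given in the sources used here are the tumor type, what happened on day 0, and how and in which cells Vhl was deleted. The remaining 14 libraries, of day 11 tumor and of sorted tumor subsets, entered the fit for the estimate of spread.

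VHL is the substrate-binding part of a ubiquitin ligase. In cells with oxygen, prolyl hydroxylases modify the alpha subunits of hypoxia-inducible factor (HIF), and VHL binds the modified form and marks it for degradation. Cells without VHL keep HIF active whatever the oxygen supply, and HIF turns on genes for glucose uptake, glycolysis, lactate export, mitophagy and angiogenesis. Wild-type cells can also activate HIF by themselves, in poorly oxygenated tissue or after strong antigen receptor stimulation, so the level from which a target starts can differ between tissues.

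The 8 libraries held 3375558 to 8744385 reads assigned to genes, of which 29.0% to 42.3% fell on the ribosomal RNA gene CT010467.1. Levels are size-factor scaled counts, and 1 read was worth 0.788 to 2.35 of them. All 8 libraries came from 1 plate column. All 15 T cell markers examined, among them Cd3e and Cd8a, had reads in each of the 4 groups. The WT tumor pair was the least alike: among the 7160 tested genes above the median level, 10.7% differed by more than 2-fold between its replicates, against 1.03% in VHL-deficient tumor, 4.20% in VHL-deficient spleen and 3.92% in WT spleen. The p-values rest on a spread estimated within the 10 groups of all 22 libraries, each a pool of mice, and not on these 8 alone.

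Vhl itself (mm10 chromosome 6, 113623959 to 113631633) was low in all 4 VHL-deficient libraries. Its scaled counts were 1.35 and 5.51 in VHL-deficient tumor (replicates 1 and 2) against 177 and 141 in WT tumor. In spleen they were 20.1 and 9.02 against 138 and 111. The genotypes did not overlap in either tissue, and Vhl fell in both, with log2 differences of -5.34 in tumor (adjusted p = 5.22e-04) and -3.10 in spleen (adjusted p = 0.0361). The residual was higher in both VHL-deficient spleen libraries than in both tumor ones, but the tissue difference of -2.24 ± 1.14 (SE) did not pass (adjusted p = 0.528). In bulk RNA, a few cells that kept Vhl and a low level in every cell cannot be told apart, as holds for every level below: fewer cells of a type and less RNA per cell look alike.

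Loss of VHL moved genes in the same direction in both tissues wherever both were called. A gene was called at a Benjamini-Hochberg adjusted p under 0.05 over the 14327 tested genes. In tumor 273 genes were called (1.91%), of which 241 rose (1.68%) and 32 fell (0.223%). In spleen 455 were called (3.18%), of which 350 rose (2.44%) and 105 fell (0.733%). The 122 genes called in both, 44.7% of the tumor list and 26.8% of the spleen list, had the same direction in all 122 cases: 113 rose and 9 fell. In 72 of them the log2 difference was larger in spleen. Tumor and spleen differences share no library. Of the 151 genes called in tumor only, 134 had the same sign in spleen, and of the 333 called in spleen only, 285 had the same sign in tumor, while among all tested genes 51.1% did.

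**Figure D1:**
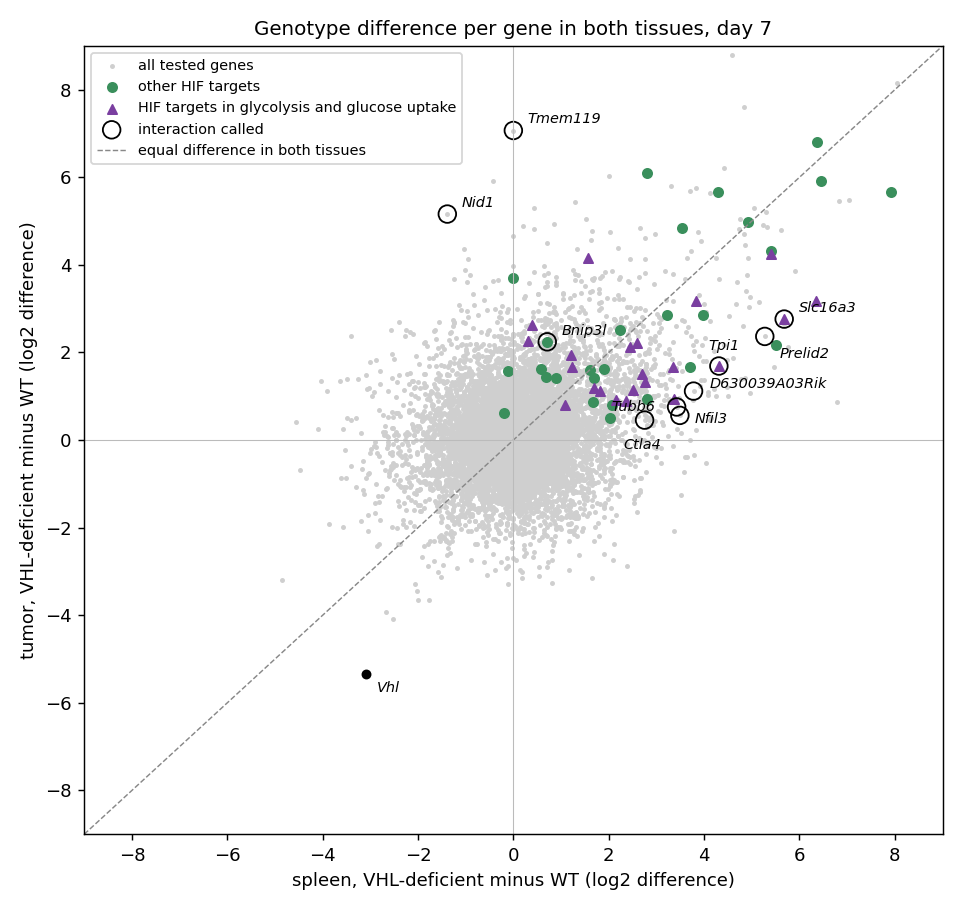
Each point is a gene, with the VHL-deficient minus WT log2 difference in spleen on the horizontal axis and in tumor on the vertical axis. Purple triangles are HIF targets in glycolysis and glucose uptake, green circles are other HIF targets, and black rings mark the 10 genes with a called interaction: 7 lie below the dashed line of equal difference and 3, Bnip3l, Nid1 and Tmem119, lie above it.

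The interaction itself was called for 10 of 14327 genes (0.0698%). In 7 of them the difference was smaller in tumor than in spleen (Slc16a3, Nfil3, Tubb6, Tpi1, D630039A03Rik, Prelid2 and Ctla4, 0.0489% of the tested genes), and in 3 it was larger in tumor (Bnip3l, Nid1 and Tmem119, 0.0209%). None of the 10 rose in one tissue and fell in the other by a call in both: 3 had been called in both tissues, 4 in spleen only and 3 in tumor only. An unadjusted p under 0.05 was reached by 1377 genes (9.61%), 734 with a larger and 643 with a smaller difference in tumor. The next gene in order, Igsf5, had an adjusted p of 0.0514. The median standard error of the interaction was 0.690, against 0.488 for each tissue alone. The number of calls depended on single libraries: it was 0 without VHL-deficient tumor replicate 1 and 0 without replicate 2, 1 without WT tumor replicate 2, 2 without WT spleen replicate 2, 3 without VHL-deficient spleen replicate 1 and 16 without VHL-deficient spleen replicate 2. It was also 1 when the spread was modelled without a trend on level, and all 10 genes kept their direction under each of the 24 alternatives.

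**Figure D2:**
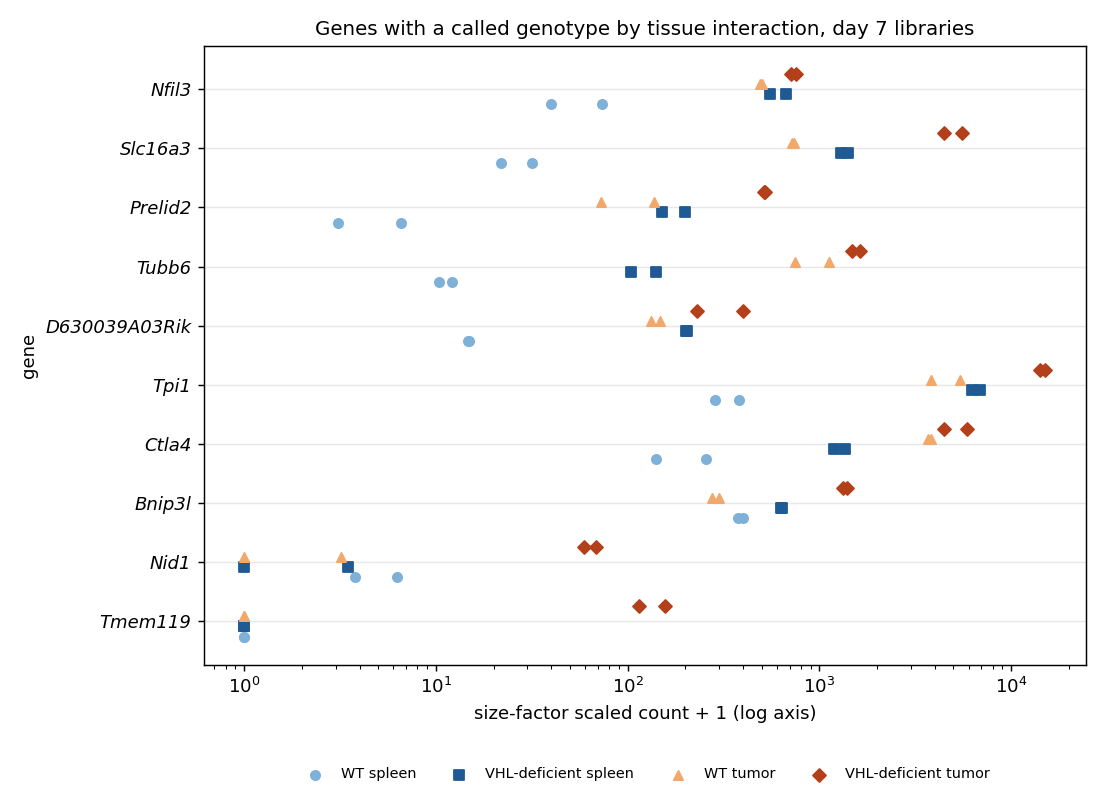
Scaled counts plus 1, on a log axis, of the 10 genes with a called interaction, ordered by it; each symbol is 1 library and each group has 2. For the first 7 genes both WT spleen libraries (pale circles) stand apart at the low end, whereas for Nid1 and Tmem119 only the VHL-deficient tumor libraries (red diamonds) stand above 50.

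Slc16a3, which encodes the lactate and proton exporter MCT4 and is a classical HIF target, had the smallest p of all tested genes. It lies on mm10 chromosome 11, 120948480 to 120960868. Its scaled counts were 5511 and 4454 in VHL-deficient tumor against 736 and 722 in WT tumor. In spleen they were 1301 and 1400 against 30.6 and 20.95. WT spleen cells held almost none, WT tumor cells held far more, and the genotypes were well apart in both tissues. The rise was 6.79-fold in tumor (log2 difference 2.76) and 51.3-fold in spleen (5.68), and the interaction was -2.92 ± 0.42 (SE), adjusted p = 0.0148.

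The sequence before the Slc16a3 start holds the short core recognised by HIF, and so do those of other genes described here. The core searched was ACGTG on both strands, which reads CACGT when it lies on the other strand, and which overlaps the E-box CACGTG bound by other factors. The 250 bases before each RefSeq start (GRCm38.p6) are shown 5′ to 3′ on the gene's own strand with the core in capitals, for Slc16a3 and Ctla4, the called genes in which it was found, and for the HIF targets P4ha2 and Pgk1, described below. Of the 10 called genes 6 had a promoter in the table used, and 2 of those 6 had a match, against 5444 of all 32851 promoters of that length (16.6%) and 2355 of the 9321 found for tested genes (25.3%). A match is a description of letters only.
Slc16a3, chr11:120948817-120949066, plus strand: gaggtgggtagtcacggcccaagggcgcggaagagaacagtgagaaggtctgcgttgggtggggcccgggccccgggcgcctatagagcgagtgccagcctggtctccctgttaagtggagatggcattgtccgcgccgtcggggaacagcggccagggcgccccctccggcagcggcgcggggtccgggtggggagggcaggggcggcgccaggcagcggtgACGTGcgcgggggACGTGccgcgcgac
Ctla4, chr1:60908775-60909024, plus strand: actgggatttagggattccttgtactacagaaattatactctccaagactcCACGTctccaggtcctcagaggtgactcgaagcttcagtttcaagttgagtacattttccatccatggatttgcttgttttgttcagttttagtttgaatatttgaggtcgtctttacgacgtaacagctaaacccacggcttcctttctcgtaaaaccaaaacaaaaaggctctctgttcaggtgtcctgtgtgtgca
P4ha2, chr11:54100674-54100923, plus strand: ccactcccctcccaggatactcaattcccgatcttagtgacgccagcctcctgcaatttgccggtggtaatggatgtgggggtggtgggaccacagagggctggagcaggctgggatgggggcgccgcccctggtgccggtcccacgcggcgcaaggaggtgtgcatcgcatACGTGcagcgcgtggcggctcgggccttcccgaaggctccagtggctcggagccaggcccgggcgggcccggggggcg
Pgk1, chrX:106186850-106187099, plus strand: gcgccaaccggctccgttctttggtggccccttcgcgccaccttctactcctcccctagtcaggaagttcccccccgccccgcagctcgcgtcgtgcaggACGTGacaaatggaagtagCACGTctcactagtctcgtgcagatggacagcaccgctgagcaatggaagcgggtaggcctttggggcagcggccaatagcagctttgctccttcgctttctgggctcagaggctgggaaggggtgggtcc

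Tpi1, the glycolytic enzyme triosephosphate isomerase, followed the same pattern at a higher level (chromosome 6, 124810586 to 124814296, where it overlaps Spsb2). It stood at 15090 and 14160 in VHL-deficient tumor against 3807 and 5385 in WT tumor, and at 6846 and 6262 against 380 and 285 in spleen. Both VHL-deficient spleen libraries exceeded both WT tumor libraries. It rose 3.23-fold in tumor and 19.8-fold in spleen, with an interaction of -2.62 ± 0.46 (SE) and an adjusted p of 0.0359.

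Nfil3 and Ctla4, which are known for roles in lymphocytes, were already high in WT tumor cells. Nfil3 is a basic leucine zipper transcription factor (chromosome 13, 52967209 to 52981073). Its scaled counts were 709 and 756 against 498 and 492 in tumor, and 554 and 664 against 72.4 and 38.8 in spleen. The VHL-deficient libraries of both tissues and the WT tumor libraries thus lay close together, and WT spleen alone was low. Nfil3 rose in spleen (log2 difference 3.49, 11.2-fold) and had a log2 difference of 0.56 in tumor (adjusted p = 0.449), with an interaction of -2.93 ± 0.45 (SE), adjusted p = 0.0159. Ctla4 encodes an inhibitory receptor that competes with CD28 for its ligands (chromosome 1, 60887000 to 60915832, overlapping the pseudogene Rpl18-ps1). It stood at 5895 and 4455 against 3804 and 3666 in tumor, and at 1193 and 1362 against 255 and 139 in spleen. Every tumor library exceeded every spleen library, and the genotypes were separate in both tissues. Ctla4 rose 6.74-fold in spleen, against 1.37-fold in tumor (adjusted p = 0.526), with an interaction of -2.30 ± 0.43 (SE), adjusted p = 0.0470. That call was made in 8 of 14 other settings and was lost under all 3 other scalings, with a pseudocount of 5, without the trend and with voom, where the interaction lay between -2.32 and -2.11.

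Tubb6, Prelid2 and D630039A03Rik completed the genes with a smaller difference in tumor. Tubb6 is a class of beta-tubulin, a subunit of microtubules, and lies on chromosome 18 (67390717 to 67402749). Its counts were 1622 and 1476 against 744 and 1126 in tumor, and 103 and 139.5 against 11.1 and 9.43 in spleen, so that tissue separated its libraries more than genotype did. It rose 10.7-fold in spleen and had a log2 difference of 0.76 in tumor (adjusted p = 0.258), interaction -2.67 ± 0.42 (SE), adjusted p = 0.0159. Prelid2, a protein with a domain named after the mitochondrial protein PRELI, was called in both tissues. It had 513 and 518 against 72.0 and 136 in tumor, and 199 and 151 against 5.57 and 2.10 in spleen. Its rise was 5.16-fold in tumor and 38.7-fold in spleen, interaction -2.91 ± 0.53 (SE), adjusted p = 0.0445. D630039A03Rik, a gene model with no assigned name, had 230 and 397 against 132 and 146 in tumor and 203 and 200 against 13.9 and 13.6 in spleen, with an interaction of -2.66 ± 0.47 (SE), adjusted p = 0.0359. It rose in spleen (log2 difference 3.78), and its tumor difference of 1.12 did not pass (adjusted p = 0.102).

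Bnip3l, also called Nix, an outer-membrane receptor that directs mitochondria to mitophagy and a known HIF target, showed the reverse order (chromosome 14, 66985239 to 67008877). It had 1395 and 1331 in VHL-deficient tumor against 299 and 275 in WT tumor. In spleen it had 637 and 632.5 against 377 and 398. Its WT level was higher in spleen than in tumor, whereas 21 of the 27 tested HIF targets outside glycolysis had a higher WT level in tumor. The replicates of each group were close. Bnip3l rose 4.74-fold in tumor. The spleen difference was 1.64-fold (log2 0.71, adjusted p = 0.0585), and the interaction was 1.53 ± 0.28 (SE), adjusted p = 0.0469. The related mitophagy receptor Bnip3 differed the other way in point estimate: 3586 and 3296 against 147 and 200 in tumor and 1187 and 1198 against 43.1 and 16.8 in spleen, called in both tissues, with an interaction of -1.10 that did not pass (adjusted p = 0.484).

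Nid1 and Tmem119 were detected at more than a few reads in VHL-deficient tumor cells only, among these 8 libraries. Nid1 encodes nidogen, a basement membrane protein (chromosome 13, 13437551 to 13512269). It had 67.6 and 58.3 scaled counts in VHL-deficient tumor against 2.18 and 0 in WT tumor, and 0 and 2.46 against 2.78 and 5.24 in spleen. From the reads, 124 against 2 in tumor, the ratio was 41.4 (exact 95% counting interval 11.2 to 346). In spleen, with 3 against 7 reads, it was 0.430 (0.0718 to 1.89). The interaction was 6.55 ± 1.15 (SE) with an adjusted p of 0.0359, a value that depends on the added count of 1. Tmem119, a membrane protein known from microglia and bone-forming cells (chromosome 5, 113793729 to 113800516), had 156 and 114 in VHL-deficient tumor and 0 reads in the other 6 libraries. Against a floor of 3 reads per library it was at least 26.1-fold higher in tumor, and no fold can be given in spleen. The interaction had an adjusted p of 0.0470, but its size is set by the count added before the logarithm. Its call was lost with either other pseudocount, under all 3 other scalings, with the stricter level filter, without the trend, with voom and in the 8 libraries alone, and was made in 5 of 14 other settings. Markers of the cells these genes are known from moved as follows. The 13 macrophage and monocyte markers summed to 36.5 to 61.5 scaled counts in VHL-deficient tumor and 65.4 to 91.7 in WT tumor, with Adgre1, C1qa, C1qc and Fcgr1 at 0 in both. The 12 fibroblast and endothelium markers summed to 274 to 322 and 190.5 to 307.5, with Col1a1, Pdgfrb, Sparc and Kdr at 0 in both. Most of these sums was Pecam1, with 298 and 269 against 302 and 174. Fn1 had 16 reads against 1 in tumor, a ratio of 10.7 (exact 95% counting interval 1.66 to 448). Col1a2, Pdgfra and Vwf had reads in WT tumor and not in VHL-deficient tumor, and Cdh5 the reverse.

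The HIF targets of glycolysis and glucose uptake as a group showed a larger log2 rise in spleen and ended higher in tumor. The list holds 22 genes, all tested, and with the other lists it was chosen with earlier results of these data known. In tumor 15 rose and 0 fell, against 1.68% and 0.223% of all tested genes. In spleen 16 rose and 0 fell, against 2.44% and 0.733%. Of these 11 rose in both tissues, 4 in tumor only (Slc2a3, Pfkfb3, Pdk1 and Gbe1) and 5 in spleen only (Pfkp, Aldoa, Pgam1, Eno1 and Ldha). The median log2 difference was 1.68 in tumor and 2.48 in spleen, against 0.03 and 0.04 over all tested genes. The median interaction was -0.93, against -0.03 over all tested genes, with 17 of 22 members below 0 against 7350 of 14327. Slc16a3 and Tpi1 were the 2 members called in the interaction. The 4 library differences of tumor lay wholly below the 4 of spleen for 14 members and wholly above for 4, which held for 14.6% and 13.6% of all tested genes.

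**Figure D3:**
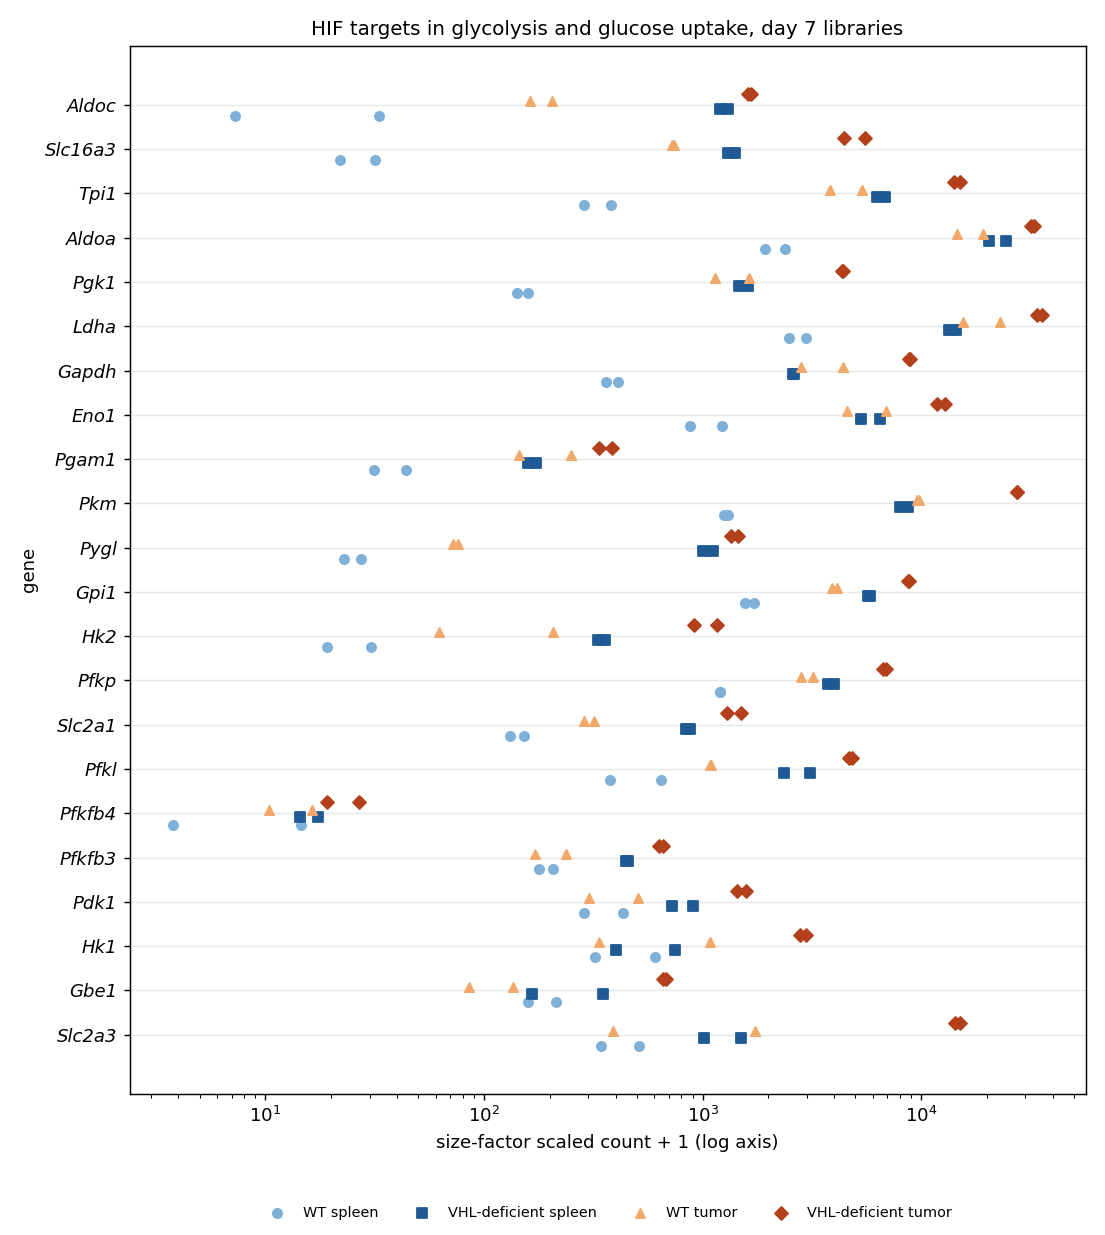
Scaled counts plus 1, on a log axis, of the 22 HIF targets of glycolysis and glucose uptake in the 8 libraries, 2 per group, ordered by the interaction. VHL-deficient tumor (red diamonds) had the highest mean for all 22 genes and WT spleen (pale circles) the lowest for 21.

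The highest and the lowest of the 4 groups were the same for nearly every glycolytic gene. The mean was highest in VHL-deficient tumor for 22 of 22 members and lowest in WT spleen for 21, the exception being Gbe1. Of all 14327 tested genes, these held for 3460 and 4021. WT tumor exceeded WT spleen for 21 members, and VHL-deficient spleen exceeded WT tumor for 17, against 7585 and 7006 of all tested genes. Measured in scaled counts rather than as a ratio, the increase from WT to VHL-deficient was larger in tumor for 21 of 22 members. For 16 the ratio was larger in spleen while the increase in counts was larger in tumor. The VHL-deficient minus WT difference in counts was larger in tumor for 6782 of all 14327 tested genes. Slc16a3 rose by 4253 scaled counts in tumor and by 1324 in spleen. Tpi1 rose by 10030 and by 6221. The exception was Aldoa, the main aldolase of most tissues, with a difference of 15420 in tumor and 20270 in spleen. Among the 7 called genes with a smaller log2 difference in tumor, the difference in counts was larger in tumor for 5, and larger in spleen for Nfil3 (238 against 554) and D630039A03Rik (175 against 188).

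Pgk1, Aldoc and Aldoa came closest to a call among the remaining glycolytic genes. Pgk1, phosphoglycerate kinase, had 4379 and 4346 against 1144 and 1632 in tumor, and 1607 and 1469 against 159 and 140 in spleen. VHL-deficient spleen and WT tumor overlapped, and the interaction was -1.68 ± 0.36 (SE), adjusted p = 0.101. Aldoc, an aldolase best known from brain, had 1620 and 1667 against 161 and 205 in tumor and 1205 and 1308 against 32.0 and 6.29 in spleen, interaction -3.17, adjusted p = 0.101. Aldoa rose in spleen only by call, from 2378 and 1938 to 24460 and 20390, while in tumor it went from 14660 and 19260 to 32890 and 31860 (log2 0.95, adjusted p = 0.257). Its interaction was -2.43, adjusted p = 0.109.

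The other 5 of the 22 glycolytic members lay the other way. Slc2a3, the glucose transporter GLUT3, had 14270 and 14980 in VHL-deficient tumor against 1735 and 388 in WT tumor, and 1017 and 1505 against 344 and 508 in spleen. It rose in tumor (17.8-fold, adjusted p = 0.00215), its spleen difference did not pass, and the interaction was 2.59 ± 1.02 (SE), adjusted p = 0.432. The WT tumor replicates of Slc2a3 were themselves far apart: the interaction was 3.67 without replicate 1 and 1.51 without replicate 2. Gbe1, the glycogen branching enzyme, had 659 and 680 against 135 and 84.7 in tumor and 165 and 350 against 211.5 and 158 in spleen, interaction 2.24, adjusted p = 0.259. Pfkfb3, Pdk1 and Hk1 had interactions of 0.44, 0.75 and 1.95, none called. By contrast Slc2a1, the transporter GLUT1, differed little between tissues: it rose 4.62-fold in tumor and 6.03-fold in spleen, interaction -0.39 with a 95% interval from -1.22 to 0.45.

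HIF targets outside glycolysis had a median interaction near 0 whose sign depended on which WT tumor library was used. Of 30 listed genes 27 were tested: 16 rose in tumor and 20 in spleen, 14 of them in both, and 0 fell. Among all tested genes 1.68% rose in tumor and 2.44% in spleen. The median log2 difference was 2.17 in tumor and 2.24 in spleen, the median interaction was -0.01, and 14 of 27 lay below 0. Without WT tumor replicate 1 the median interaction was 0.34 with 13 of 27 below 0, and without replicate 2 it was -0.44 with 16 of 27 below 0. Bnip3l was the only member called. Individual members spanned a wide range. At the low end Ankrd37, an ankyrin repeat protein induced by HIF, had 283 and 247 against 40.4 and 82.3 in tumor and 755 and 659 against 11.1 and 18.9 in spleen, interaction -3.33, adjusted p = 0.109. P4ha2, a collagen prolyl hydroxylase, had 734.5 and 805 against 12.0 and 16.5 in tumor. In spleen it had 239 and 243 against 0 reads, at least 65.9-fold higher. The P4ha2 interaction of -2.24 (adjusted p = 0.0973) depends on the count of 1 added before the logarithm. At the high end St6gal1, a sialyltransferase, had 1576 and 1669 against 24.0 and 21.2 in tumor and 434 and 553 against 43.1 and 112 in spleen, interaction 3.31, adjusted p = 0.244. It rose in both tissues.

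Other well-known targets were higher in VHL-deficient cells of both tissues, and their interactions did not pass the adjusted threshold. Egln3, the prolyl hydroxylase that feeds back on HIF, had 2340 and 2196 against 122 and 125 in tumor and 1254 and 1183 against 23.7 and 31.4 in spleen, interaction -1.24 ± 0.41 (SE), adjusted p = 0.342. The unadjusted limma p of Egln3 was 0.00641 and its 95% interval, from -2.09 to -0.39, lay below 0. Vegfa, the vascular growth factor, had 0 reads in all 4 WT libraries. It was at least 10-fold higher in tumor and at least 5.10-fold higher in spleen. Jmjd6 had an interaction of -0.01 with adjusted p = 0.995, and Stc2 one of 0.07 with adjusted p = 0.984. Among the HIF subunits themselves, Hif1a messages were at 1946 and 1530 against 3669 and 2110 in tumor and 277 and 341 against 412 and 511 in spleen, log2 differences of -0.69 and -0.58 that passed in neither tissue. Every tumor library held more Hif1a message than every spleen library.

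Of the messages of the mitochondrial genome, 2 fell in VHL-deficient tumor cells, and none was called in spleen or in the interaction. Of the 8 tested genes 2 fell in tumor (mt-Cytb and mt-Nd5) and 0 were called in spleen, with medians of -1.26 and -0.18. Among all tested genes 0.223% fell in tumor. All 8 interactions lay below 0, with a median of -1.09, and 0 were called, while 7350 of all 14327 tested genes lay below 0. mt-Co1, the catalytic subunit of complex IV, had 22100 and 23780 against 45480 and 79510 in tumor and 31800 and 24450 against 33250 and 30620 in spleen. The mitochondrial share of all reads was 3.93% to 4.14% in VHL-deficient tumor against 7.56% to 9.46% in WT tumor. In spleen it was 3.995% to 5.003% against 6.07% to 6.68%, so this share did not overlap between genotypes in either tissue. All reads include those on CT010467.1, whose own share varied between libraries. In summed scaled counts of the mitochondrial messages the genotypes overlapped in spleen, at 34440 to 42990 in VHL-deficient against 41730 to 45660 in WT cells. These sums did not overlap in tumor, at 33600 to 34350 against 64400 to 107300. The 32 nuclear genes of oxidative phosphorylation had a median of -0.57 in tumor and 0.07 in spleen, with 0 called in either, and 30 of 32 interactions lay below 0 (median -0.65, 0 called). Both lists moved with WT tumor replicate 2, the library with the highest mt-Co1: without it the median interactions were -0.80 and -0.33. With it but without replicate 1 they were -1.32 and -1.06.

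Genes of the type I interferon response had a lower median in VHL-deficient than in WT spleen and one close to 0 in tumor. Of 22 interferon genes 4 fell in spleen (among them Ifit2, Ifit3 and Oasl1) and 0 were called in tumor, with medians of -1.26 and -0.12. Among all tested genes 0.733% fell in spleen. The median interaction was 1.18, with 18 of 22 above 0 and 9 at an unadjusted p under 0.05, all of them above 0, and 0 were called. Of all 14327 tested genes 6977 had an interaction above 0, 734 of them at an unadjusted p under 0.05. Ifit2, an interferon-induced RNA-binding protein, had 44.6 and 53.6 against 67.6 and 44.7 in tumor and 8.94 and 37.7 against 150 and 135 in spleen. The tumor groups overlapped and the spleen groups did not, interaction 2.71, adjusted p = 0.266. Cholesterol synthesis had 0 of 19 genes called in either tissue, medians of -0.17 in tumor and -0.91 in spleen, and 16 of 19 interactions above 0 (median 0.72, 0 called). The cholesterol median was 0.43 without VHL-deficient tumor replicate 1 and 1.11 without WT tumor replicate 1.

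**Figure D4:**
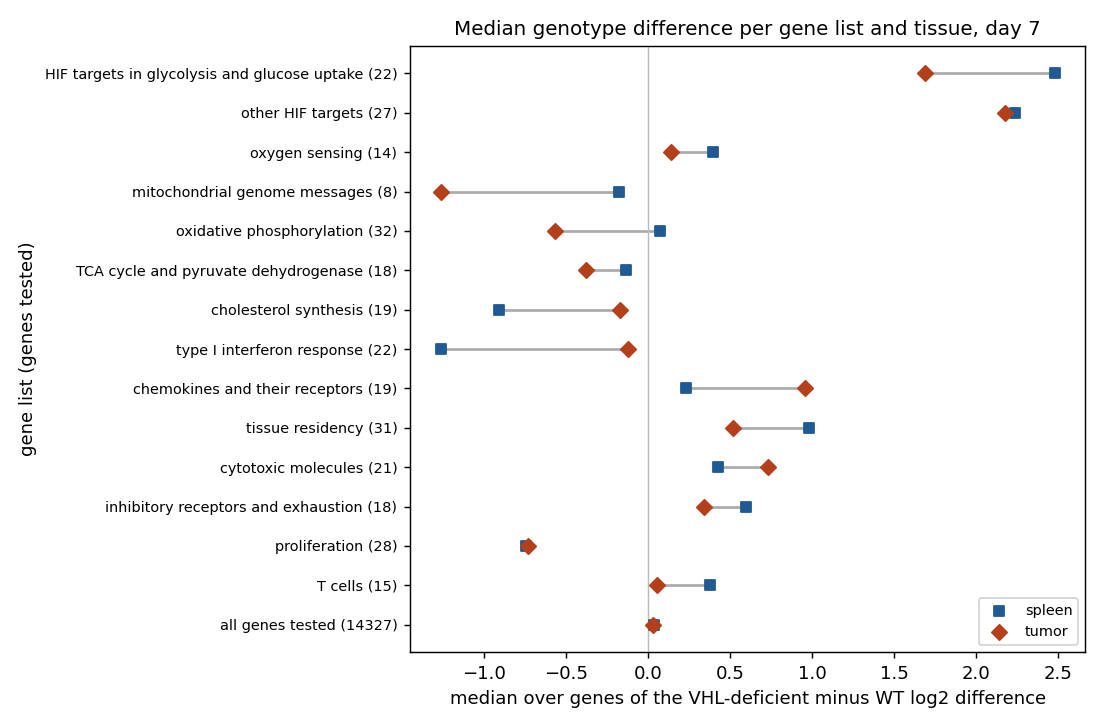
Median VHL-deficient minus WT log2 difference over the genes of each list, in spleen (blue squares) and tumor (red diamonds), with the number of genes tested in brackets. The glycolytic HIF targets lie at 2.48 in spleen and 1.68 in tumor, the interferon genes at -1.26 and -0.12, and all tested genes near 0 in both.

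Genes by which resident and effector CD8+ T cells are known were mixed. Itgae, the integrin chain CD103, through which T cells bind E-cadherin on epithelium, had 123 and 160 against 2.18 and 4.70 in tumor and 250 and 619 against 102 and 183 in spleen. The WT tumor levels rest on 2 reads in each library, so no exact fold is given in tumor. Itgae rose in tumor (adjusted p = 1.34e-04), its spleen difference of 1.52 did not pass (adjusted p = 0.328), and neither did the interaction of 3.53 ± 0.96 (SE), adjusted p = 0.256. Its lowest libraries were WT tumor. Over the residency list 5 of 31 genes rose in tumor (16.1%) and 9 in spleen (29.0%), with 0 lower and 1 (Qpct) in both. Among all tested genes 1.68% rose in tumor and 2.44% in spleen. The orphan nuclear receptor Nr4a1, an early message of receptor stimulation, had 3683 and 2526 against 2937 and 3452 in tumor and 69.3 and 61.5 against 12.5 and 15.7 in spleen. It rose in spleen, and the interaction was -2.20, adjusted p = 0.171.

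Cytotoxic and chemokine genes were called in one tissue or in neither. Gzmb, granzyme B, had 96740 and 75650 against 23040 and 29390 in tumor and 5838 and 5469 against 1727 and 1236 in spleen. The difference passed in spleen (1.95, adjusted p = 0.0467) and not in tumor (1.72, adjusted p = 0.116), and the 2 differed by -0.23 with a 95% interval from -1.79 to 1.33 (adjusted p = 0.929). Prf1, the pore-forming perforin, had 16500 in both VHL-deficient tumor libraries against 4495 and 4708, and 637 and 790 against 626 and 508 in spleen. It rose in tumor (log2 1.84, adjusted p = 0.0468), and its interaction of 1.51 did not pass (adjusted p = 0.484). Ccl4, an inflammatory chemokine, had 6110 and 7328 against 1752 and 3368 in tumor and 67.1 and 79.6 against 113 and 110 in spleen, interaction 2.06, adjusted p = 0.301. Neither tissue passed for Ccl4, although its genotypes were separate in both, in opposite order. Over 19 chemokine and receptor genes the median interaction was 0.95 with 13 above 0 and 0 called, and without WT tumor replicate 2 it was 0.58. Of all 14327 tested genes 6977 lay above 0. The inhibitory receptor Pdcd1 (4967 and 3648 against 4034 and 3645 in tumor, 38.0 and 54.1 against 44.5 and 46.1 in spleen) overlapped between genotypes in both tissues, interaction 0.15 with a 95% interval from -1.04 to 1.34.

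The summed levels of several marker lists of other cell types were separate between genotypes in both tissues, and the larger sums rested on 1 or a few genes. The 11 genes of dendritic cells and class II MHC summed to 2016 to 2355 in VHL-deficient tumor against 270 to 424 in WT tumor, and to 1444 to 1620 against 945 to 1297 in spleen. The VHL-deficient tumor sums are mostly H2-Ab1, a class II chain called in both tissues, with 1821 and 1575 against 30.5 and 44.7. Its partner chain H2-Aa had 8.12 and 3.15 against 1.09 and 28.2. Itgax had 139 and 105 against 251 and 68.2 in tumor, more than H2-Ab1 in both WT libraries. In spleen H2-Ab1 had 534 and 437 against 5.57 and 1.05, and the WT sums were mostly Itgax, with 615 and 976 against 781 and 1203. Xcr1, called in tumor only, had 201.5 and 197 against 75.25 and 63.5 in tumor and 170 and 147 against 98.8 and 46.1 in spleen. Cd74 had 92.0 and 80.4 against 20.7 and 21.2 in tumor and 24.6 and 2.46 against 2.78 and 2.095 in spleen. Clec9a was at 0 in all groups but VHL-deficient spleen. The NK cell list summed to 3392 to 4232 against 1388 to 1505 in tumor and 4250 to 7304 against 1829 to 2057 in spleen, with Klra8 and Klra9 at 0 in all 4 groups. Nearly all of it was Gzma, a granzyme that cytotoxic T cells also express, with 3954 and 3199 against 1283 and 1124 in tumor and 7185 and 4163 against 1927 and 1752 in spleen, called in neither. In tumor Klrb1c (13.5 and 15.0 against 21.8 and 21.2), Klrb1f and Eomes lay the other way. The B cell list was lower in VHL-deficient cells, at 283 to 294 against 554 to 1058 in tumor and 600.5 to 653 against 1204 to 1234 in spleen. Ighm, the heavy chain of IgM, made up most of the WT sums and fell in both tissues. Of the 4 tested members of this list, 3 had a log2 difference above 0 in each tissue. Among these Cd79b had 54.1 and 67.0 against 30.5 and 37.6 in tumor and 306 and 267 against 173 and 99.5 in spleen. The CD4 T cell list, mostly the transcription factor Gata3, stood at 481 to 507 against 428 to 475 in tumor and 1934 to 2157 against 968 to 984 in spleen. Gata3 was called in spleen only and Cd4, at 24.4 and 22.1 against 0 and 2.35, in tumor only. In tumor Foxp3 (0 and 0 against 8.73 and 7.06) and Cd40lg (17.6 and 44.9 against 60.0 and 65.85) lay the other way, neither called. Of the 5 tested members of the CD4 list, 3 had a log2 difference above 0 in tumor and 4 in spleen. The part of such cells in the results above was not tested. Neutrophil markers summed to at most 19.5 in each library, with S100a8 at 0 in all 4 groups, and those of erythroid cells and platelets to at most 23.05. Melanoma markers summed to 27.6 to 28.4 against 35.3 to 38.2 in tumor and 90.2 to 101 against 66.8 to 70.2 in spleen, and macrophage markers in spleen to 32.0 to 40.2 against 15.3 to 31.4, both with the genotypes in opposite order in the tissues.

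The tumor differences of the called genes were set beside those of the day 11 tumor cells and of the day 7 tumor cells sorted as tissue-resident memory (Trm) or nonTrm. These are other libraries of the same study. Slc16a3 had log2 differences of 2.67 on day 11, 2.99 in Trm and 2.17 in nonTrm cells, all called and all below the 5.68 of spleen. Tpi1 had 1.80, 1.59 and 2.12, all called, against 4.31 in spleen. Bnip3l had 2.05, 2.49 and 1.78, all called, against 0.71 in spleen. Ctla4 had 0.62, 1.29 and 0.18, called in Trm cells, against 2.75 in spleen. Tmem119 had 8.17, 8.37 and 4.45, all called, and Nid1 had 4.09, 4.05 and 0.92, called in the first 2. Over all tested genes 6.87% were called on day 11, 10.1% in Trm and 2.32% in nonTrm cells. With the sorted Trm and nonTrm libraries in place of the unsplit tumor cells, an alternative chosen after the data were seen, 24 genes were called, among them 9 of the 10, all but Nid1. That alternative keeps the same spleen libraries, and the sorted cells lay in another plate column.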

How the data were processed

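RNA sequencing of sorted mouse CD8+ T cells was deposited as 1 table of a signal per gene and library, 46297 rows by 22 columns, whose header states 55 samples. Per the labels' protocols, sorted cells were lysed in TCL buffer, their RNA was purified with RNAClean XP beads, and the PrepX kit was used for the libraries. The submitters' processing notes name STAR, featureCounts and DESeq and the build mm10, and give no versions. In the deposited signal each library's read counts appear scaled by its own size factor, with 1 added: after removal of the offset of 1, all values fell on whole multiples of a step fixed for each library (tolerance 0.01 reads, 100% of values). Reads were recovered from that step to give depth, floors and counting intervals, which cover counting error only. Size factors share out reads among libraries, so a large shift of a few genes moves all others slightly.

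Tested were the 14327 genes that reached a scaled count of 10 in 2 or more of the 22 libraries. The fit by limma 3.58.1 (R 4.3.3) was made on log2(scaled count + 1), with 10 group means (12 residual degrees of freedom) and eBayes(trend=TRUE), two-sided, with Benjamini-Hochberg adjustment over all tested genes. The added count of 1 understates the change of low genes. Floors were 3 reads per library, and intervals of read ratios were exact at 95%.

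The comparison, the named genes and the 34 gene lists were chosen with earlier results of these data known. Named were 24 fixed genes (some are not reported here), called genes with a level above the median (6.05 on the log2 scale) whose library differences did not overlap, and up to 3 called members per list. For Nid1, D630039A03Rik and Tmem119, which fall outside that rule, and for list members shown as examples, the choice was made after their values were seen. Alternatives were other scalings, filters, pseudocounts of 0.5 and 5, other models of the spread, a replicate block, other sets of libraries, voom on the recovered reads and leaving out each of the 8 libraries. Gene positions are from GENCODE M21 on mm10 and promoters from RefSeq on GRCm38.p6. Tables and plots used Python 3.11.15, pandas 2.3.3 and matplotlib 3.10.9.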

Additional observations from a re-analysis of the deposited data

Results flagged for a closer look

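The difference between tissues was itself tested, and 10 genes passed. The log2 difference between VHL-deficient and WT cells was smaller in tumor than in spleen by -2.92 for Slc16a3, -2.93 for Nfil3, -2.67 for Tubb6, -2.62 for Tpi1, -2.66 for D630039A03Rik, -2.91 for Prelid2 and -2.30 for Ctla4. It was larger in tumor by 1.53 for Bnip3l, 6.55 for Nid1 and 7.07 for Tmem119. The sizes for Nid1 and Tmem119, with few or 0 reads in the other groups, depend on the count added before the logarithm: over all alternatives that of Nid1 ran from 3.87 to 7.61 and that of Tmem119 from 4.79 to 8.06. What the reads give for Tmem119 is a bound of at least 26.1-fold in tumor. Slc16a3, Nfil3 and Tubb6 were each called in 4 of the 8 fits that left out 1 library, Nid1 and Prelid2 in 3, Tpi1 in 2 and Ctla4 in 1. Bnip3l, D630039A03Rik and Tmem119 were called in 0 of the 8.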

How the results depend on the processing

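The interaction was called for 10 genes. Counts within 1.5 times of that came from further TMM scaling (7), recomputed size factors (8), scaling by reads outside ribosomal RNA and the mitochondrial genome (8), both other level filters (10 and 8), a pseudocount of 0.5 (14), library weights (15) and the 8 libraries alone (15). Other counts were 16 with no filter on level, 5 with a pseudocount of 5, 1 without the trend, 2 with voom on recovered reads (Tpi1 and Nfil3), 17 without the outlying VHL-deficient nonTrm library, 24 with the sorted cells as the tumor arm, and 0 to 16 on leaving out 1 library. The cause was not tested, except that fewer libraries leave fewer degrees of freedom. A replicate block gave 111 calls, among them all 10, and 105 in the 8 libraries alone (added after the data were seen). The deviations of same-numbered libraries of the 2 genotypes correlated at 0.118 in spleen and 0.0291 in tumor. Those of the 2 tissues correlated at -0.0109 for VHL-deficient and -0.0953 for WT cells. The numbers were therefore not taken to pair the libraries. Tumor calls were 273, against 578 with the replicate block, 490 with it in the 8 libraries, 410 with library weights, 424 without the nonTrm library and 94 to 331 on leaving out 1 library. Spleen calls were 455, against 746 with the replicate block, 270 with voom and 231 to 466 on leaving out 1. Tumor calls were 94 without VHL-deficient tumor replicate 1, 117 without replicate 2 and 131 without WT tumor replicate 2. Spleen calls were 231 without VHL-deficient spleen replicate 1, 264 without WT spleen replicate 1 and 279 without replicate 2. The planned edgeR quasi-likelihood fit was not run, since the deposited values are scaled and not counts.

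Of 839 values under the alternatives, for named genes and for the number of glycolytic and other HIF targets below 0, 22 changed sign, none of them of a called gene. Hif1a became 0.016 with TMM and 0.075 with scaling outside ribosomal and mitochondrial reads, and Cxcr6 0.048 and 0.11. With the sorted tumor arm Epas1 became 0.060, Ifng -0.17, Pdcd1 -0.035 and Klrg1 -0.57. On leaving out 1 library Hif1a ranged from -0.51 to 0.29, Epas1 from -0.96 to 0.33, Hk2 from -1.52 to 0.21, Cxcr6 from -0.28 to 0.12, Gzmb from -0.47 to 0.0070, Ifng from -0.13 to 0.80, Pdcd1 from -0.10 to 0.40 and Klrg1 from -0.20 to 3.18. These scalings moved the median interaction of all genes from -0.03 to 0.09 and 0.14. Of the 22 glycolytic HIF targets 15 to 17 lay below 0 under all 24 alternatives. List medians near 0 changed sign more often: that of the other HIF targets kept it under 16 of 24, of the unfolded protein response under 18, of cytotoxic molecules under 20 and of the residency and inhibitory receptor lists under 21 each. The medians of the glycolytic HIF, mitochondrial genome, oxidative phosphorylation, interferon, cholesterol and chemokine lists kept it under all 24.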

Other observations

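Several receptors and regulators of CD8+ T cells that the comparisons above did not describe were called in spleen and not in tumor, with an interaction that did not pass. Tnfrsf9, the costimulatory receptor 4-1BB, had 13050 and 9727 against 5866 and 5247 in tumor and 261.5 and 275 against 22.3 and 46.1 in spleen, interaction -2.001, adjusted p = 0.171. Csf1, a growth factor for macrophages, had 553 and 655.5 against 462 and 397 in tumor and 105 and 132 against 15.3 and 43.0 in spleen, interaction -1.66, adjusted p = 0.353. Ccr7, the lymph node homing receptor, had 6011 and 2776 against 8490 and 4417 in tumor and 91.6 and 114 against 621 and 597 in spleen, so that it fell in spleen while its tumor groups overlapped, interaction 1.98, adjusted p = 0.399. Slamf7, a receptor of the SLAM family, rose in both tissues, with 1142 and 1253 against 455 and 562 in tumor and 3214 and 2580 against 605 and 562 in spleen, and its VHL-deficient level was higher in spleen than in tumor.

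Tcf7, the transcription factor TCF-1 of memory and stem-like cells, was lower in the VHL-deficient libraries of both tissues without passing in either. It had 51.4 and 34.7 against 137 and 127 in tumor and 306 and 366 against 1251 and 1364 in spleen, interaction 0.34, adjusted p = 0.912.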
